A study of Homo sapiens with 2 samples.

Results

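The genes described here encode splicing factors, the proteins that recognise introns in precursor RNA and remove them. They were examined in a profile of chromatin bound by mTOR, the growth-regulating kinase, in MDA-MB-231 cells, a widely used line of human triple-negative breast cancer kept in serum-containing medium. One chromatin immunoprecipitation and sequencing (ChIP-seq) library was made with an antibody against mTOR, and 1 input library, chromatin without that enrichment step by its title, served for peak calling. Neither was replicated, the labels name no treatment, and how many cultures were pooled is not given in the sources used here. Members were taken by gene name: protein-coding genes whose symbol begins with SNRP, SF3A or SF3B and a digit, U2AF, LSM and a digit, PRPF, SRSF and a digit, or HNRNP. The name rule took 66 of the 21440 peaks, assigned to 43 genes, and the gene annotation held 87 genes with such names. The peak list has no expression values, so the cell line could not be checked against marker genes.

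Introns are removed by the spliceosome, which is built on each transcript from small nuclear ribonucleoproteins (snRNPs), complexes of a short RNA with a ring of proteins. The SNRP genes encode the Sm ring and proteins of the U1 and U2 snRNPs, SF3A and SF3B subunits hold the U2 snRNP at the branch point, and U2AF reads the 3′ splice site. LSM proteins form a similar ring on U6 RNA and on messenger RNA in decay, and PRPF proteins serve mostly in the U4/U6.U5 particle and in activation. SR proteins (SRSF) often favour inclusion of exons, while heterogeneous nuclear ribonucleoproteins (HNRNP) coat nascent transcripts and often oppose it.

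Promoter sequences of 6 of the 8 members with the highest promoter scores are shown first, because the peaks at these genes cover the bases upstream of the start. Each is the 150 bases before the RefSeq start (GRCh38.p14, gene strand). Capitals mark the core letters bound by ETS-family transcription factors, CCGGAAG or their reverse complement. The members left out, HNRNPK and HNRNPA3, have peaks that cover 0 of these 150 bases, and their windows hold 0 of these letter runs. The capitals are for display only: a difference in these letters between promoters with and without a peak was not detectable, as given below. The SNRPB window is chr20:2470790-2470939 on the minus strand, and that of SNRPB2 is chr20:16729876-16730025 on the plus strand. SF3A2 is at chr19:2236674-2236823 and SNRPA at chr19:40751053-40751202, both on the plus strand. HNRNPF is at chr10:43408858-43409007 and SRSF1 at chr17:58007247-58007396, both on the minus strand. PRPF6 (chr20:63980982-63981131, plus strand), chosen after its values were seen, has 2 of these letter runs and no peak.
SNRPB: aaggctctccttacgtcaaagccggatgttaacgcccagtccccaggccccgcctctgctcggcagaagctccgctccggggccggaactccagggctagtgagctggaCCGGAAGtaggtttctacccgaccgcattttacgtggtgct
SNRPB2: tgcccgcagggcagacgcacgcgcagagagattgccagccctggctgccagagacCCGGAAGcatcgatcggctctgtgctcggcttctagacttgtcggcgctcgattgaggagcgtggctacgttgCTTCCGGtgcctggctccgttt
SF3A2: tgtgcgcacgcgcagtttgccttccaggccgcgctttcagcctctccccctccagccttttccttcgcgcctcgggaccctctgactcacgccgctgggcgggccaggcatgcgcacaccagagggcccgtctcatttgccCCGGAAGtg
HNRNPF: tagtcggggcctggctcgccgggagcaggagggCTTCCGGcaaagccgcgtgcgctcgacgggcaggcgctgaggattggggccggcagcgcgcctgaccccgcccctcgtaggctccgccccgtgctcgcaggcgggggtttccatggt
SNRPA: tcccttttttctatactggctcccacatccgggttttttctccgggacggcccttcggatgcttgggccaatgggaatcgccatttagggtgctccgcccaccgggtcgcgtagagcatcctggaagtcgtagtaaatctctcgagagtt
SRSF1: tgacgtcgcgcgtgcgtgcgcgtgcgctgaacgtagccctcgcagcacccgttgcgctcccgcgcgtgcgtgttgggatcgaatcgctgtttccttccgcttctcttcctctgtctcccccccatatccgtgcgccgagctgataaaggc
PRPF6: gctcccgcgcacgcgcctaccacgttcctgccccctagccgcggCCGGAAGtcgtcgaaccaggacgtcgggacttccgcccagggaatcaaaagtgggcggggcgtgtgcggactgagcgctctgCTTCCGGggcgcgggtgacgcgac

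The first question was how many splicing factor genes carried a peak at the promoter. A promoter peak is one assigned to the gene that overlaps 1 kb either side of the start site, by the deposited distance and the peak width. Of the 87 genes 34 had one, or 39.1% (exact Clopper-Pearson 95% interval 28.8 to 50.1%), against 15.5% of all 19970 protein-coding genes. Most of these peaks had low scores, where the score is a deposited whole number of unstated scale that only ranks peaks. When only the 10724 peaks with a score of 61 or more were kept, 10 of 87 splicing factor genes had a promoter peak (11.5%, 5.65 to 20.1%), against 7.45% of all protein-coding genes. That interval includes the background share, so at this score limit no difference was detectable. Intervals cover counting error only, the genes are not replicates, and no test was made because the names were chosen with results of these data known.

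By family, SNRP genes had 8 of 12 (66.7%, 34.9 to 90.1%) and HNRNP genes 13 of 26 (50%, 29.9 to 70.1%), and the intervals of both lay above 15.5%. SF3A and SF3B genes had 4 of 9 (44.4%, 13.7 to 78.8%), and SRSF genes had 5 of 12 (41.7%, 15.2 to 72.3%). U2AF genes had 1 of 3. LSM genes had 2 of 13 (15.4%, 1.92 to 45.4%), the background share, and PRPF genes had 1 of 12 (8.33%, 0.211 to 38.5%). Counted by assigned peaks, the intervals of the other 5 families include 15.5%. A count by position, given below, changes this for SRSF genes. The SNRP and PRPF intervals overlap between 34.9 and 38.5%, and no difference between families was tested. With peaks scoring 61 or more, SNRP genes had 4 of 12 (33.3%, 9.92 to 65.1%) and HNRNP genes 3 of 26 (11.5%, 2.45 to 30.2%), against 7.45% of all protein-coding genes, a share that the HNRNP interval includes.

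**Figure D1:**
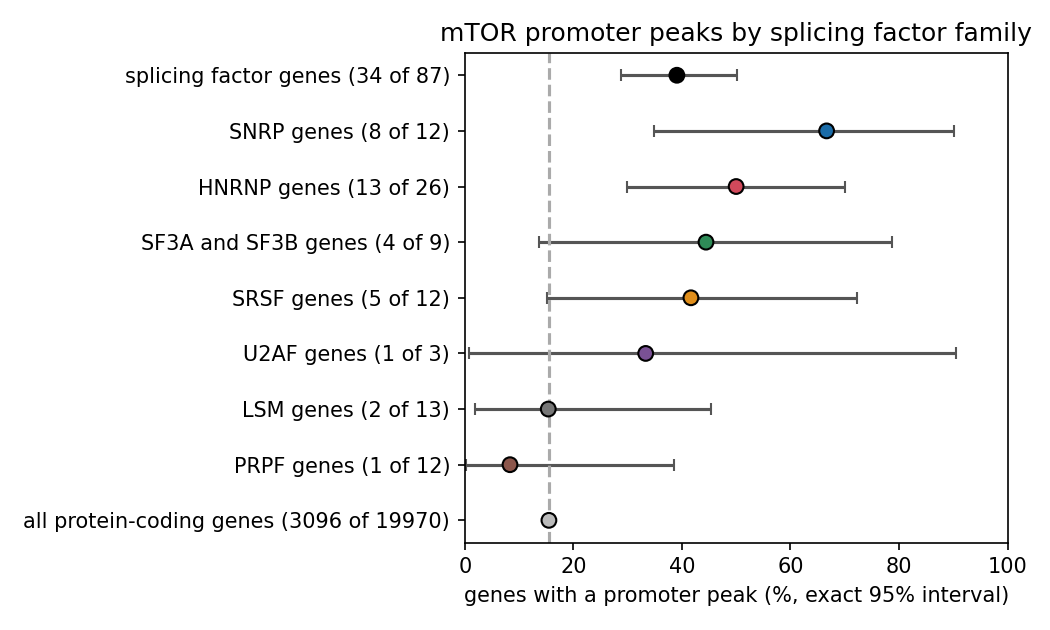
Share of genes with a promoter peak (%, horizontal axis) in all splicing factor genes, in each of 7 name families and in all protein-coding genes; points are shares, bars exact 95% intervals, and the dashed line marks 15.5%. SNRP genes stand at 66.7% and PRPF genes at 8.33%.

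Among SNRP genes the highest score belonged to SNRPB, which encodes the SmB ring protein shared by the spliceosomal snRNPs, with 251 (chr20:2470525-2470932, centre 61 bp downstream of the start). SNRPB2, a U2 snRNP protein that binds U2 RNA, followed with 196 (chr20:16729702-16730260, centre at -45 bp). These values placed SNRPB at rank 205 and SNRPB2 at rank 317 of the 3096 protein-coding genes with a promoter peak. SNRPA, the U1 protein that binds a U1 RNA stem loop, had 88 at -83 bp. SNRPD1 of the Sm ring had 69 at 94 bp, and SNRPA1, the partner of SNRPB2 on U2 RNA, had 47 at 10 bp. The remaining Sm genes with a peak were low: SNRPD2 had 26, SNRPE 23 and SNRPG 21, on a list whose lowest score is 13. The Sm ring was thus covered unevenly, with peaks from 251 at SNRPB to 21 at SNRPG. SNRPC, SNRPD3, SNRPF and SNRPN, the last a gene of an imprinted locus, had no assigned peak.

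SF3A2, a subunit of the SF3a complex of U2 snRNP, had the highest promoter score of all splicing factor genes, 280, rank 175 (chr19:2236603-2237761). A start of PLEKHJ1 lies within 1 kb on the opposite strand. The SF3A2 peak was 1159 bp wide and centred 358 bp downstream of the SF3A2 start. Others of its family were near or below the median of all protein-coding promoters: SF3A3 had 54 at -77 bp, SF3B6, the small subunit next to the branch point adenosine, had 48 at -135 bp, and SF3B3 had 26 at 556 bp. SF3A1, SF3B1, SF3B2, SF3B4 and SF3B5 had no assigned peak; SF3B1, the largest subunit and a frequent target of mutation in cancer, is thus among the genes without one. U2AF2, which binds the polypyrimidine tract, had 35 at -175 bp. U2AF1 and U2AF1L4 had none.

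Scores at HNRNP promoters were low, and none of the 13 reached 103, the upper quartile of all 21440 peaks. HNRNPK, a protein with a preference for C-rich sequence, had 97 at 123 bp (chr9:83979745-83980439). HNRNPF, which binds G-rich runs, had 83 at -151 bp, and HNRNPA3 had 82 at 432 bp. HNRNPF differed from the rest in having 3 promoter peaks, scores 83, 69 and 23, each assigned to another transcript start of the gene. HNRNPL, a binder of CA-rich RNA, had peaks of 57 and 54 at separate starts, and HNRNPUL1 had 44 and 37. HNRNPD, which also acts in decay of AU-rich messages, had 44, HNRNPA0 40, HNRNPA2B1 37, HNRNPH3 and HNRNPR 35 each, HNRNPH1 31, HNRNPAB 21 and HNRNPC 17. HNRNPC, the uridine-binding core protein of these particles, had the lowest promoter score of all 34 genes. HNRNPA1, HNRNPA1L2, HNRNPA1L3, HNRNPCL1, HNRNPCL2, HNRNPCL3, HNRNPCL4, HNRNPH2, HNRNPLL, HNRNPM and HNRNPUL2 had no assigned peak. Of those 11 genes 6 are HNRNPA1-like or HNRNPC-like copies, whose values are uncertain because the handling of multiply aligned reads is not stated.

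SR protein genes had SRSF1 at the top, the founding member of the family, with 82 at -118 bp (chr17:58007131-58007797). A second SRSF1 peak of score 29 lay at -1124 bp over an AluSx1 element and reached the 1 kb window only by its width. SRSF7 had 61, SRSF3 had 51, SRSF8 had 27 and SRSF6 had 24. SRSF10, SRSF11, SRSF12, SRSF2, SRSF4 and SRSF9 had no assigned peak. PRPF3, a U4/U6 protein mutated in a form of retinitis pigmentosa, had the single PRPF promoter peak, with 56 at -222 bp (chr1:150320978-150321515). No peak was assigned to 9 PRPF genes, among them PRPF19, PRPF31, PRPF38A, PRPF38B, PRPF39, PRPF4, PRPF6 and PRPF8. These include PRPF8, the scaffold of the catalytic centre, and PRPF19, the ubiquitin ligase of the activation complex that carries its name. The LSM promoter peaks were those of LSM14A with 30 at -180 bp and LSM12 with 22 at 322 bp. LSM14A is a protein of cytoplasmic RNA granules rather than of the U6 ring. LSM1, LSM10, LSM11, LSM2, LSM5, LSM6 and LSM7 had no assigned peak, and no gene of the U6 ring, LSM2 to LSM8, had one at the promoter.

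Over the 34 genes, the highest promoter score per gene had a median of 44 (31 to 57, exact interval of the median) and a range of 17 to 280, against a median of 58 (56 to 60) in all 3096 protein-coding genes with a promoter peak. Scores of 103 or more were found at 3 of 34 splicing factor promoters (8.82%), SF3A2, SNRPB and SNRPB2, against 24.7% of all 3096. Counted by assigned peaks, splicing factor promoters thus had a peak more often than the background, and those peaks were mostly low-scoring. Peaks given to a neighbouring gene do not enter these scores. Of those described below, the peaks at the starts of PRPF31 (324) and SNRPD3 (111) exceed 103, and that at SRSF9 (82) does not. Family medians were 58 for SNRP, 51 for SF3A and SF3B, 51 for SRSF and 40 for HNRNP genes, with overlapping ranges. The median peak width was 462.5 bp, against 453.5 bp in all genes with a promoter peak.

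**Figure D2:**
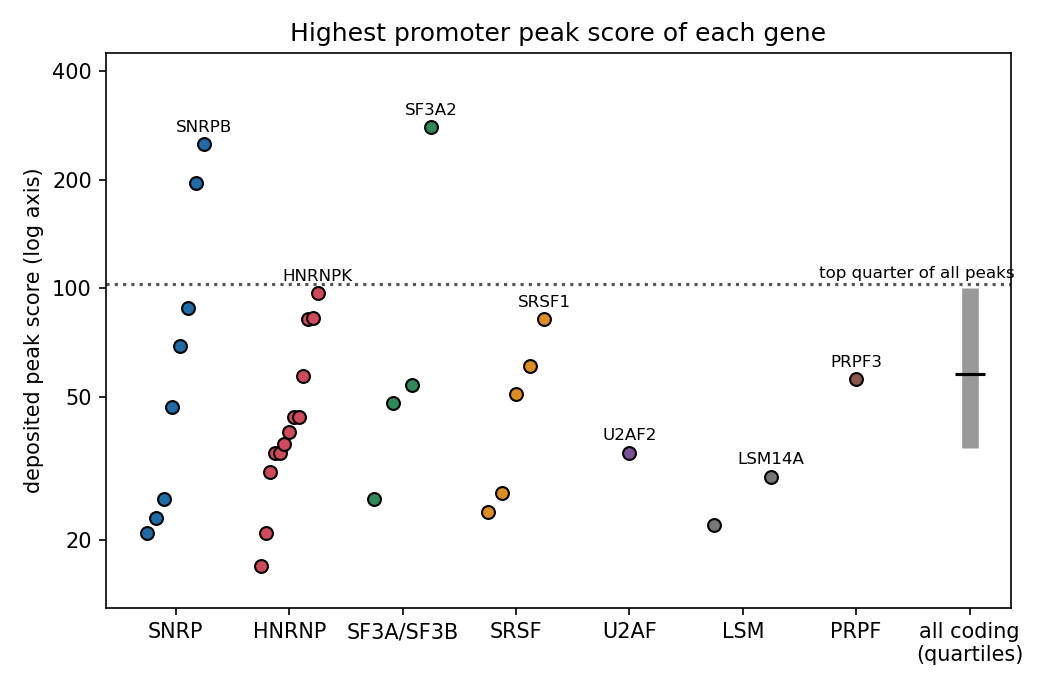
Highest promoter peak score of each gene (deposited score, log axis) by family, 1 point per gene, with the quartiles (grey bar) and median (line) of all protein-coding genes with a promoter peak at the right. The dotted line marks 103, the upper quartile of all peaks; SF3A2 (280), SNRPB (251) and SNRPB2 (196) lie above it.

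The second question was where the promoter peaks lay relative to the start site. Over the 34 genes the median offset of the peak centre was 29 bp (-102 to 268), with 15 of 34 centres upstream (44.1%). In all 3096 genes the median was -49.5 bp (-58 to -37) and 57.9% were upstream. The interval of the splicing factor median includes -49.5 bp, so no shift in the median was detectable. Centres within 200 bp of the start were seen at 19 of 34 splicing factor genes (55.9%) and at 50.4% of all. Among SNRP peaks 7 of 8 had centres between -102 and 115 bp and covered the start itself, SNRPD2 at 854 bp being the exception. HNRNP centres ran from -449 bp at HNRNPA0 to 474 bp at HNRNPL, and 9 of 13 peaks covered the start. In the SRSF family only SRSF1 and SRSF3 (42 bp) had a peak across the start, while SRSF6, SRSF8 and SRSF7 were centred 509, 557 and 562 bp downstream. The exact intervals of the median offset overlap, -102 to 854 bp for SNRP and -323 to 272 bp for HNRNP genes, and the 5 SRSF genes, too few for a 95% interval, ranged from -118 to 562 bp. No difference between families was tested. With a window of 100 bp the SRSF count was therefore 2 of 12 (16.7%), against 10.9% of all protein-coding genes, and the SNRP count 7 of 12. Nearest to the 1 kb limit inside were the second SRSF1 peak and SNRPD2, and outside were HNRNPDL at 1209 bp and an HNRNPUL1 peak at -1266 bp.

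**Figure D3:**
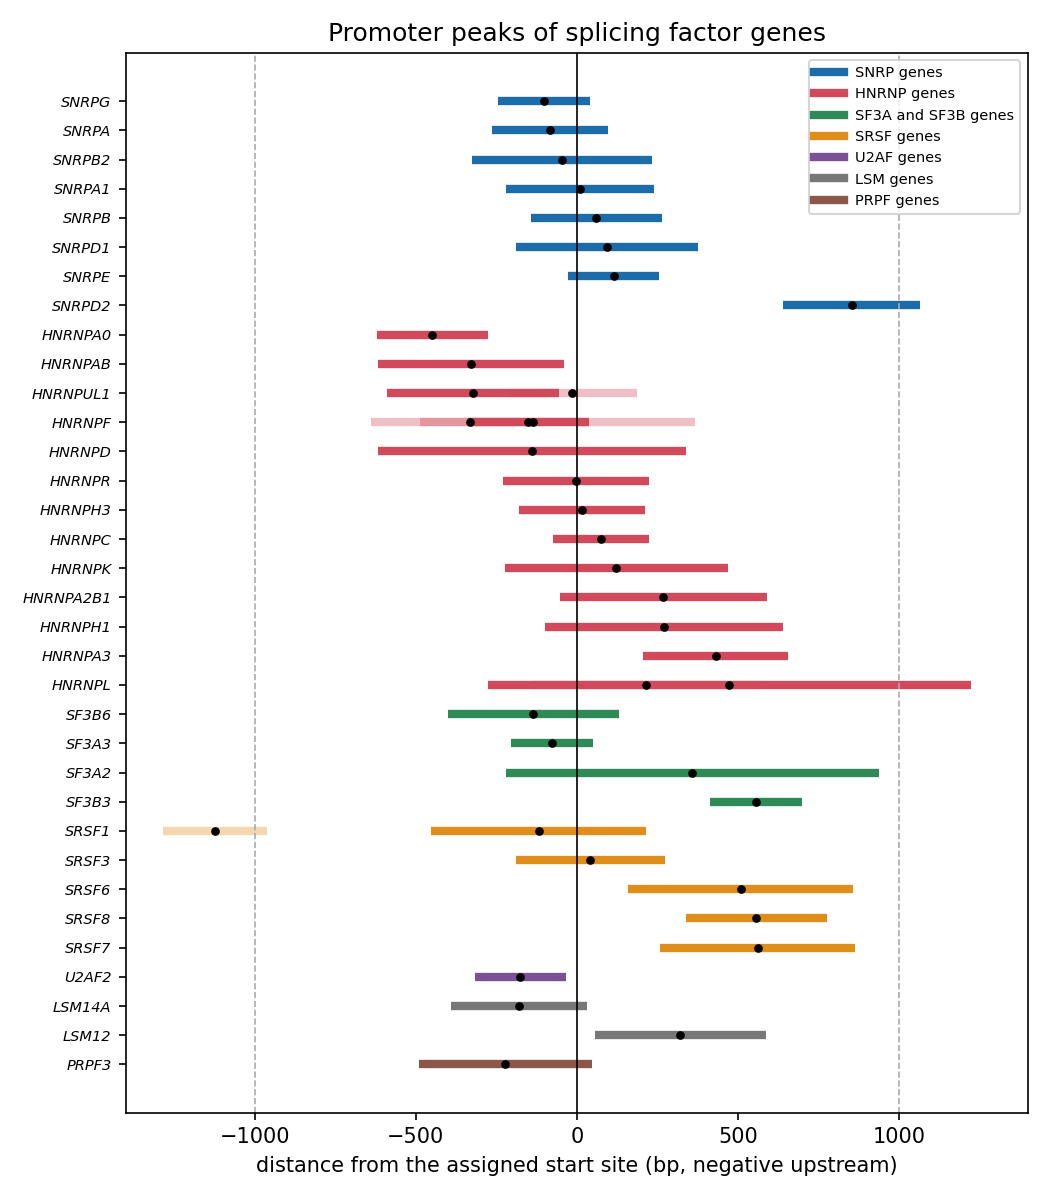
Promoter peaks of the 34 splicing factor genes drawn to scale around the assigned start site (bp, negative upstream), coloured by family; bars are peaks, points their centres, paler bars the lower-scoring peaks of a gene and dashed lines the 1 kb limits. SNRP peaks gather on the start, and SRSF6, SRSF7 and SRSF8 lie downstream of it.

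Each peak in the list is assigned to 1 gene, so the starts were also checked against the RefSeq start table by position. It held a start for 75 of the 87 genes, and a peak of any assignment overlapped 1 kb either side in 30 of them (40.0%, 28.9 to 52.0%), against 18.1% of 15812 protein-coding genes. This added 3 genes whose start lay under a peak given to a neighbour. PRPF31, a U4/U6 protein mutated in retinitis pigmentosa, had a peak of score 324 centred at -178 bp (chr19:54115183-54115968), assigned to TFPT, which begins on the opposite strand. This score is above those of all 39 promoter peaks assigned to splicing factor genes. SNRPD3 of the Sm ring had one of 111 at 152 bp, assigned to GUCD1, and SRSF9 one of 82 at -218 bp, assigned to DYNLL1. Which of the paired starts a shared peak belongs to cannot be told apart. The same limit holds for peaks assigned to members that begin back to back with another gene. These were 9 of 30 genes with a promoter peak, SF3A2 among them. Conversely HNRNPH1, SNRPD2 and U2AF2 had their peak assigned to another annotated transcript start and none within 1 kb of the RefSeq start. The SNRPD2 peak (chr19:45690888-45691311, RefSeq start 45692316) lay just outside this limit. So did the U2AF2 peak (chr19:55653733-55654017, RefSeq start 55655035), so both counts by position depend closely on the 1 kb limit. By position, SNRP genes had 7 of 11 (63.6%, 30.8 to 89.1%) and HNRNP genes 12 of 23 (52.2%, 30.6 to 73.2%). SRSF genes had 6 of 11 (54.5%, 23.4 to 83.3%), and the intervals of these families lay above 18.1%. Those of the other families include 18.1%, with U2AF genes at 0 of 3, the U2AF2 peak lying just outside the window.

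The third question was what lay away from the promoters. Any assigned peak was found at 43 of 87 genes (49.4%, 38.5 to 60.4%), against 41.7% of all protein-coding genes. A distal peak, outside the 1 kb window, was found at 21 of 87 (24.1%, 15.6 to 34.5%), against 32.5%. Both shares are close to the background, whose value lies within each interval. In 22 genes only promoter peaks were assigned, in 12 promoter and distal ones, and in 9 only distal ones. LSM genes had distal peaks alone at 4 of 6 genes with a peak, LSM3, LSM4, LSM8 and LSM14B, and PRPF genes at 2 of 3, PRPF18 and PRPF40B. Among all protein-coding genes with a peak 62.8% had distal ones alone, so these counts are near the background, while in all splicing factor genes with a peak it was 9 of 43 (20.9%). All 8 SNRP genes with a peak had one at the promoter.

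The 27 distal peaks had a median score of 53 (37 to 95) and lay a median of 19371 bp from the start, against 61 and 27181 bp for 12039 distal peaks of protein-coding genes. Intergenic sequence held 19 of them (70.4%), against 49.4%, and introns 7 (25.9%), against 45.4%. A repeat lay under the centre of 18 of 27 (66.7%), against 76.6%, while 1 of the 39 promoter peaks (2.56%) had a repeat label, against 3.51% of all promoter peaks. L1 elements, a family of retrotransposons, held 9 (33.3%, against 40.9%), and Alu elements, short primate repeats, held 4 (14.8%, against 4.39%). With 27 peaks these shares rest on few cases.

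The strongest distal peak was 12510 bp upstream of LSM14B over an AluYh3 element, with a score of 210 and a width of 1771 bp (chr20:62109080-62110850). SRSF5 had 168 at 23482 bp upstream and LSM8 137 at 25259 bp upstream, both over MER4-int, an internal sequence of an endogenous retrovirus. SNRPE had 137 at 32996 bp downstream over an L1MEc element, against 23 at its own promoter. PRPF18, a factor of the second catalytic step, had 128 at 55561 bp with no repeat label, and SRSF7 had 126 at 11702 bp over L1M4a2, against 61 at its promoter. SNRPA1 had 101 at 7761 bp, in an intron over an L1PA5 element, against 47 at its promoter. In all, 8 of the 12 genes with both kinds had their highest score away from the promoter (66.7%), SF3B3, SRSF3, SRSF6, HNRNPD and HNRNPH3 being the others, against 62.2% of 1271 protein-coding genes with both kinds. Peaks within 10 kb numbered 7. Besides SNRPA1 they were those of PRPF40B (87 at -7460 bp), SF3B3 (51 at 1720 bp), LSM4 (37 at -5552 bp), HNRNPF (29 at 1806 bp), HNRNPDL (30) and HNRNPUL1 (30). The others included 3 intergenic peaks upstream of SRSF6, up to 123504 bp away, and assignment to the nearest start does not show that a distal peak acts on that gene.

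**Figure D4:**
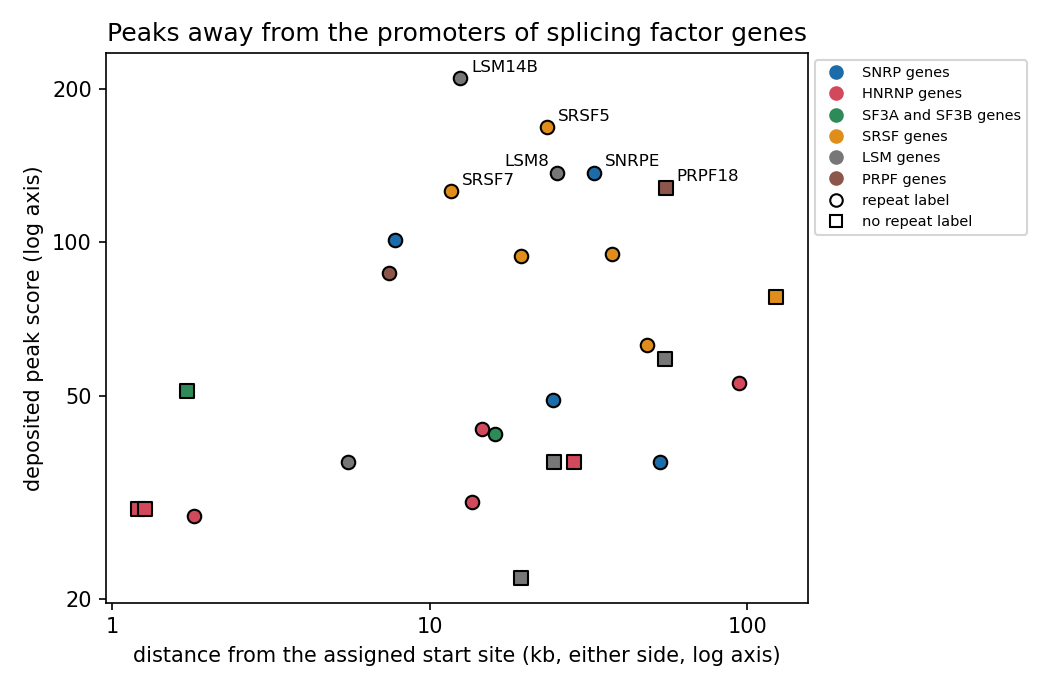
Deposited score (log axis) of the 27 distal peaks against distance from the assigned start site (kb, log axis), coloured by family, with circles for peaks over a repeat and squares for the rest. The peak of LSM14B (210) is highest, and the 6 named peaks have scores of 103 or more.

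Promoter sequences of 300 bases, 250 before to 50 after the RefSeq start, were available for 75 of the 87 genes, 30 with and 45 without a promoter peak. The ETS core CCGGAAG, searched on both strands like all motifs here, was in 12 of 30 promoters with a peak (40.0%, 22.7 to 59.4%) and in 11 of 45 without one (24.4%, 12.9 to 39.5%). Among all protein-coding promoters it was in 20.3% of the 2575 with a peak and in 14.2% of all 15812. The intervals of the splicing factor groups overlap, so a difference between promoters with and without a peak was not detectable in these numbers. The sequence is that at the RefSeq start, while 3 of the 30 genes with a promoter peak had no peak within 1 kb of that start. Other peaks may also be assigned to a different start within 1 kb, as at HNRNPK, where the peak covers 0 of the 150 bases before the RefSeq start. When genes were instead sorted by any peak within 1 kb of the RefSeq start, a choice made after the data were seen, the shares were 10 of 30 (33.3%, 17.3 to 52.8%) with a peak and 13 of 45 (28.9%, 16.4 to 44.3%) without, and 21.8% in all 2860 protein-coding promoters with such a peak. SNRPB had the letters at -41, SNRPB2 at -95 and -22, and SF3A2 at -9, as capitals in the sequences above show. Letters inside the gene's own promoter peak were found in 10 of the 12 genes (83.3%), against 68.4% of 522 protein-coding genes with a promoter peak and the letters. The exceptions, SNRPD2 and U2AF2, had their peak assigned to another transcript start, and the SNRPD2 peak was centred 854 bp downstream of that start. This share rests on 12 genes, and its difference from 68.4% was not tested. The peaks covered on average 53.1% of the window in splicing factor genes and 50.3% in all. Over the 14 matches inside a gene's own peak, the distance to the peak centre ran from 10.5 to 364 bp with a median of 59.8 bp. By family the core was in 7 of 11 SNRP and 6 of 8 SF3A and SF3B promoters, in 3 of 23 HNRNP, 2 of 11 SRSF, 2 of 9 PRPF, 2 of 10 LSM and 1 of 3 U2AF promoters.

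The series concerns RONIN, the DNA-binding protein encoded by THAP11, and a core of the THAP11 and ZNF143 sites, ACTACANNT, was searched as well. It was in 0 of 30 splicing factor promoters with a peak, for which the exact interval reaches 11.6%, and in 4 of 45 without one (8.89%), among them PRPF19 and PRPF4. Of all protein-coding promoters it was in 7.77% of those with a peak and in 4.19% of all. The absence says only that these letters were not in this window. The YY1 letters AAGATGGC were in 0 of 30 and 5 of 45, against 6.14% of all promoters with a peak and 3.91% of all. The NRF1 letters GCGCATGC were in 1 of 30 and 4 of 45, against 4.0% and 4.26%. GGGCGG, the SP and KLF core, was in 63.3% and 60.0%, against 70.6% and 58.5%, and CCAAT, the NFY box, in 46.7% and 42.2%, against 35% and 36.3%. The E-box CACGTG was in 4 of 30 and 4 of 45, against 11.0% and 8.87%, and the CRE letters TGACGTCA were in 0 of 30 and 0 of 45, against 3.26% and 2.59%.

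**Figure D5:**
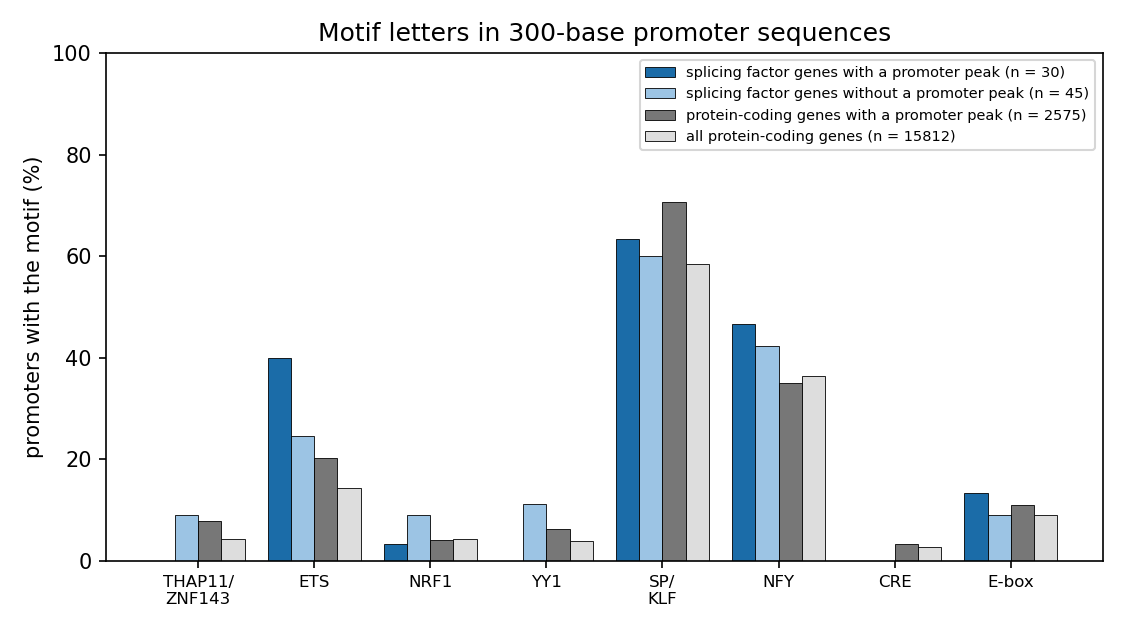
Share of promoters (%) that contain the letters of each of 8 motifs on either strand, for splicing factor genes with and without a promoter peak and for protein-coding genes with a peak and in all. ETS letters were in 40.0% of splicing factor promoters with a peak and 24.4% of those without, and in 33.3% and 28.9% when genes were sorted by a peak at the RefSeq start.

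Base composition was similar in splicing factor promoters with and without a peak, with median GC contents of 62.0% and 61.3%, against 65.7% in all protein-coding promoters with a peak and 62.7% in all. A division by GC content was chosen after the data were seen. Where GC was 54.3 to 62.7%, 16 of 34 splicing factor genes had a promoter peak (47.1%), against 16.3% of all protein-coding genes in that range. From 63.0 to 70.3% it was 11 of 21 (52.4%), against 20.3%. Above that it was 1 of 11 (9.09%, 0.230 to 41.3%), against 20.5%, and at 54.0% or less 2 of 9, against 8.29%. The 10 genes of the highest GC range without a promoter peak include PRPF40B, U2AF1, LSM4, LSM7 and SF3A1.

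Other genes of splicing, from 5 lists outside the name pattern, had a promoter peak in 44 of 151 (29.1%, 22 to 37.1%), against 15.5%. With peaks of score 61 or more the count was 26 of 151 (17.2%, 11.6 to 24.2%), against 7.45%. Other snRNP proteins had 13 of 36, led by LUC7L2 with 237, SUGP1 with 203, ZMAT5 and LUC7L with 147 each and the U5 GTPase gene EFTUD2 with 100. Exon junction and export factors had 7 of 20, led by the helicase gene DDX39B with 226, RNPS1 with 137, THOC1 with 73, EIF4A3 with 45 and NXT1 with 44. Factors that assemble snRNPs had 6 of 17, with SMN2 at 147, DDX20 at 106, COIL at 67, GEMIN5 at 59 and PHAX at 46. SMN1 and SMN2 are near-identical copies, so the assignment to SMN2 is uncertain. Other splicing regulators had 9 of 39, with RBM39 at 315, TRA2B at 193, KHSRP at 155 and TIAL1 at 78. Factors of the PRPF19 complex and of the catalytic steps had 9 of 39, with MFAP1 at 97, HSPA8, better known as a chaperone, at 95, CWC27 at 78 and CWC25 at 68. This last list had no score above 97. Of the 5 lists, counted by assigned peaks, only other snRNP proteins had an interval (20.8 to 53.8%) above 15.5%. Those of the other 4 include it. The lists were also counted by any peak within 1 kb of the RefSeq start, against 18.1% of all protein-coding genes. Exon junction and export factors then had 9 of 17 (52.9%, 27.8 to 77.0%) and other snRNP proteins 11 of 30 (36.7%, 19.9 to 56.1%). The intervals of the remaining lists include 18.1%.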

How the data were processed

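Peaks of 1 mTOR ChIP library of MDA-MB-231 cells were analysed, and no file of the input library was used here. Trimmomatic 0.36, BWA 0.7.12, Picard 2.0.1, MACS2 2.1.1.20160309, HOMER 4.11.1 and hg38 are listed per the submitters' processing notes, and no peak threshold or handling of duplicate and multiply aligned reads is stated. Each peak has a score, a whole number that the authors deposited, which was used only to rank and select peaks. Distance to the start and nearest gene were used as deposited. Depth is unknown.

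Genes came from a RefSeq table (GRCh38.p14), all 43 member genes of the peak list matched it by identifier, and the promoter sequences are RefSeq's. All 151 genes of the 5 lists matched. Shares have exact Clopper-Pearson 95% intervals and medians exact binomial ones. No test was made. The window rule was tested on simulated peaks. Members, lists and motifs were chosen with earlier results of these data known. The genes named are every member with a promoter peak, distal peaks in the upper quartile of scores or within 10 kb, and up to 5 top genes per list, of which a few are left out here. Alternatives were other windows, definitions, score limits, repeats, name-rule subsets and, added after the data were seen, chromosome 19 left out and motif genes sorted by position. Software was scipy 1.17.1, numpy 2.4.6, matplotlib 3.10.9 and pandas 2.3.3 under Python 3.11.15.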

Additional observations from a re-analysis of the deposited data

How the results depend on the processing

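The share of splicing factor genes with a promoter peak was 31.0 to 42.5% in 10 of 12 alternatives, the exceptions being both score limits, and lay above that of all protein-coding genes in each. Windows of 100 bp gave 31.0% against 10.9%, and windows of 5 kb 40.2% against 20.3%. Chromosome 19 left out, an alternative chosen after the data were seen, gave 36.0% against 14.7%. Score limits moved the shares, since fewer peaks enter. With the 10724 peaks scoring 61 or more, shares were 11.5% for all splicing factor genes, 33.3% for SNRP, 11.1% for SF3A and SF3B, 11.5% for HNRNP and 0% for U2AF, LSM and PRPF genes, 15.0% for exon junction and export factors and 17.2% for the 5 other lists together. With the 2147 peaks scoring 200 or more, they were 2.30% for all splicing factor genes (2 genes, against 1.58% of all), 8.33% for SNRP, 11.1% for SF3A and SF3B, 0% for U2AF, LSM, PRPF, SRSF and HNRNP genes, 5.56% for other snRNP proteins, 5.00% for exon junction and export factors, 2.56% for other regulators, 0% for PRPF19 complex and step factors and for assembly factors and 2.65% for the 5 lists together. Too few genes were left there to show a direction. Distal peaks numbered 12 with the higher-scoring set and 9 without repeat-labelled peaks, against 27. Median score stayed between 44 and 47, and the median offset between -3 and 42 bp, so the side of the start is not settled for the offset. The alternatives for these medians all used assigned peaks, so peaks given to a neighbouring gene do not enter them. No paired analysis was possible because each group has 1 library. The depth of the libraries, which sets how many low-scoring peaks are found, is unknown.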

Other observations

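Splicing factor genes often began back to back with another gene. Of the 75 with a RefSeq start 22 (29.3%, exact 95% interval 19.4 to 41.0%) had a start on the opposite strand within 1 kb upstream, against 18.3% of all protein-coding genes. The share was 9 of 30 (30.0%) among those with a promoter peak and 13 of 45 (28.9%) among those without. By family it ran from 1 of 11 SRSF genes to 2 of 3 U2AF genes. It was not particular to the name rule: the 5 other lists of splicing genes together had 37 of 127 (29.1%, 21.4 to 37.9%). Neighbours were not limited to protein-coding genes. They include CBX3 at HNRNPA2B1, PLEKHJ1 at SF3A2 and ORC1 at PRPF38A, the last without a peak. Divergent transcripts and unnamed loci were counted too, such as HNRNPD-DT at HNRNPD and LOC105373759 at HNRNPA3.

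Chromosome 19 carried the largest number of splicing factor promoter peaks, at 7 of its 12 genes: SF3A2, SNRPA, SNRPD2, U2AF2, HNRNPL, HNRNPUL1 and LSM14A. All protein-coding genes of that chromosome had one in 26.3%. The chromosome was picked after the data were seen. By share, chromosomes 18 (1 of 1), 5 (3 of 4), 10 (2 of 3) and 20 (3 of 5) stood higher. On chromosome 1, with 16 splicing factor genes, 4 had a promoter peak, against 13.2% of all.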
